A study of Mus musculus with 12 samples.

Results

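The genes described here act when a broken meiotic chromosome copies its homologous partner and when some of those joints become crossovers. They are Dmc1, Meiob, Spata22, Msh4, Msh5, Hfm1, Tex11, Rnf212, Ccnb1ip1 and Mlh3. They were chosen as a named group with earlier results of these data known. Of these 10 genes, 9 had a row in the table of 37991 gene identifiers, and Spata22, which encodes the binding partner of MEIOB, was not analysed here. All 9 passed the filter on low counts and were among the 16708 genes tested.

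Meiosis begins in the ovary during fetal life, while male germ cells of the same age stop dividing and enter meiosis only after birth. After programmed double-strand breaks, the recombinase DMC1 coats the resected end and finds the homologous chromosome. MEIOB and SPATA22 bind the single-stranded DNA, MSH4 with MSH5, HFM1 and TEX11 stabilise the joined intermediates, RNF212 and CCNB1IP1 (HEI10) select a minority of sites as future crossovers, and MLH3 takes part in resolving those sites. EZH2 is the catalytic subunit of Polycomb repressive complex 2, which methylates lysine 27 of histone H3, a mark linked to gene silencing.

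RNA was sequenced from primordial germ cells, the embryonic precursors of eggs and sperm, of 12 C57BL/6 mouse embryos at E13.5 (days of embryonic development). The groups were female conditional knockout of Ezh2 (CKO, n = 2), female control (Ctrl, n = 3), male CKO (n = 3) and male Ctrl (n = 4), with cells of each embryo sorted separately and genotype read by PCR. The column labels of the counts mark the Ctrl libraries WT and the CKO libraries KO. The driver of the deletion, the alleles carried by the controls, the deleted exons, the litters and the sorting marker are not given in the sources used here. The design asks how loss of Ezh2 changes germ cell transcripts in each sex.

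Total counts ran from 26180685 to 35299206 per library, so that 1 CPM (counts scaled to library size) was 24.2 to 34.2 reads. The 9 genes together took 0.0192 to 0.0631% of a library's counts. Ezh2 transcripts averaged 95.6 ± 15.7 CPM in female CKO and 154 ± 10.9 CPM in female Ctrl embryos, and 84.4 ± 1.79 CPM in male CKO and 122 ± 19.9 CPM in male Ctrl embryos (SD). The reduction passed in females (adjusted p = 0.02, edgeR) and not in males (adjusted p = 0.0527, edgeR). Reads outside deleted exons still count, so these values do not measure how complete the deletion was. Germ cell markers summed to 5525 and 5668 CPM in female CKO, against 5837 to 6060 CPM in female Ctrl embryos, and to between 5513 and 6162 CPM in males, with none of the 8 at 0 in any library. Sums of Sertoli, Leydig and macrophage markers stayed at or below 20 CPM, with Amh at 0 in 5 libraries, and pregranulosa markers reached 20.1 CPM, with Foxl2 at 0 in 6. The 8 germ cell markers went different ways between the female groups. Ddx4 was higher without overlap, at 1190 and 1386 CPM in female CKO, against 1085 to 1187 CPM in female Ctrl embryos. Pou5f1 (128.4 and 156.4 CPM, against 195.6 to 220.5), Kit (335.0 and 389.6 CPM, against 472.7 to 553.5), Dppa3 (408.1 and 440.8 CPM, against 563.8 to 756.6) and Prdm1 (52.5 and 75.3 CPM, against 85.1 to 124.0) were lower without overlap in female CKO than in female Ctrl embryos. Dazl, Tfap2c and Nanos3 overlapped. Endothelial markers, nearly all Pecam1, summed to 134.2 and 162.7 CPM in female CKO, against 240.7 to 302.7 CPM in female Ctrl embryos. Of the other 4 endothelial markers, Cdh5, Kdr and Tek, at 4.33 CPM or less in females, went the other way without overlap, and Emcn overlapped near 0. Mesonephric markers, nearly all Lhx1, were at 90.1 CPM or more in each male library and at 23.5 CPM or less in each female one. The part of these marker differences in the results was not tested.

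Promoter sequences are shown for the 3 genes with a promoter entry that changed in CKO embryos averaged over the sexes, Rnf212, Ccnb1ip1 and Mlh3, and for Dmc1, the recombinase itself. Each is 300 bases of RefSeq sequence on GRCm38.p6, 5′ to 3′ on the gene's strand, from 250 bases before to 50 after the annotated start. All 4 genes lie on the minus strand: Rnf212 at chr5:108774978-108775277, Ccnb1ip1 at chr14:50795679-50795978, Mlh3 at chr12:85270550-85270849 and Dmc1 at chr15:79605060-79605359. Capitals mark a match on either strand to CNCCTCAG (bound by STRA8 with MEIOSIN, which switch on meiotic genes), CACGTG (the E-box bound by MAX with MGA), TCCCGC (the E2F core) or CCAAT (NF-Y). On the opposite strand the E2F core reads GCGGGA and the CCAAT box reads ATTGG.
Rnf212: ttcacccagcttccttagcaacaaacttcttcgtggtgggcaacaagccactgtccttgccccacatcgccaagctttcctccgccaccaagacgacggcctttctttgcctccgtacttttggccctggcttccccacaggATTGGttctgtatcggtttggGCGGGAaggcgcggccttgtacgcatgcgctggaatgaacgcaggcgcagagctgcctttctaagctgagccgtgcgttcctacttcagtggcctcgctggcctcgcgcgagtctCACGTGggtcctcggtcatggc
Ccnb1ip1: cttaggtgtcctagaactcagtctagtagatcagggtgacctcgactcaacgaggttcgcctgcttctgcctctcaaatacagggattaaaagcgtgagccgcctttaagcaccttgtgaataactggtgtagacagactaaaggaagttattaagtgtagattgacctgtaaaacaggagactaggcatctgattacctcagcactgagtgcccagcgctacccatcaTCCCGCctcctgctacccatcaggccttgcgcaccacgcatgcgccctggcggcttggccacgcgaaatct
Mlh3: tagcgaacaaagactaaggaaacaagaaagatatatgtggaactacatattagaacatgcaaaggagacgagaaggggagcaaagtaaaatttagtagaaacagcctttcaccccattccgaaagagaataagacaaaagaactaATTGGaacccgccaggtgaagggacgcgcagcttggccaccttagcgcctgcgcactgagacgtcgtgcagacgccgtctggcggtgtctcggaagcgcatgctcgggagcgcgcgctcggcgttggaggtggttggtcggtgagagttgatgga
Dmc1: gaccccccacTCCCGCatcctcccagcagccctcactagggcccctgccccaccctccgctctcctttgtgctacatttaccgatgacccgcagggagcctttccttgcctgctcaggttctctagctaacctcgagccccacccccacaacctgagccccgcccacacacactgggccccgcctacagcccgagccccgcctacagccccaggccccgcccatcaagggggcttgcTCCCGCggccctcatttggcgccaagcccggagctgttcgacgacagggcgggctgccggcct

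Rnf212 carried the E-box, 29 bases after the start, together with an E2F core and a CCAAT box on the opposite strand. Ccnb1ip1 held 1 match, an E2F core 21 bases before the start, and Mlh3 held 1, a CCAAT box on the opposite strand. Dmc1 held E2F cores 240 and 13 bases before the start. Among all 27025 promoters of this length, the E-box was in 7.24%, the E2F core in 20%, the CCAAT box in 37.9% and the STRA8 sequence in 7.97%. Of the other members with an entry, Hfm1 held the STRA8 sequence at 66 and 6 bases before the start, and an E2F core 5 bases after it. Msh5 held the STRA8 sequence once, with E2F cores 65 bases before and 36 bases after the start. It also held CCAAT boxes 243, 229 and 48 bases before the start. Msh4 held none of the 4 motifs. Spata22 held E2F cores 22 and 4 bases before the start and a CCAAT box, without the STRA8 sequence. CG dinucleotides numbered 22 in Rnf212, 22 in Mlh3, 18 in Dmc1 and 13 in Ccnb1ip1, beside a median of 7 over all promoters. They numbered 41 in Hfm1, 27 in Msh5, 25 in Spata22 and 6 in Msh4. Of all promoters, 78.4% had as many CG or fewer as Rnf212 and Mlh3, 71.6% as Dmc1 and 63.1% as Ccnb1ip1. The share was 97.1% for Hfm1, 86.0% for Msh5, 83.2% for Spata22 and 47.7% for Msh4. A match describes these letters only, and no binding was measured. RefSeq gave a window for 8 of the 10 genes, Tex11 and Meiob being the exceptions.

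Averaged over the sexes, CKO embryos had more Rnf212, Meiob and Ccnb1ip1 transcript and less Mlh3 transcript than Ctrl embryos. The E3 ligase genes Rnf212 and Ccnb1ip1 were 4.22-fold and 1.37-fold higher, Meiob was 1.87-fold higher, and Mlh3 was 1.49-fold lower. A call means an adjusted p under 0.05 in edgeR's quasi-likelihood test over all genes. By that rule 3 of 9 members were higher, where 6.85% of all genes were, and 1 of 9 was lower, where 7.87% of all genes were. The members' median log2 fold change was 0.36, and that of all genes was -0.012. Without the first female CKO embryo, 0 members were called higher and 2 lower, Hfm1 and Mlh3, and the median was 0.14. Without female Ctrl embryo 1 or 3, or male CKO embryo 2 or 3, the calls numbered 2. Over all genes 1880, 1624, 1642 and 1533 were then called, beside 2460 with all libraries. In bulk RNA, a change in the number of cells making a transcript and a change in RNA per cell cannot be told apart.

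**Figure D1:**
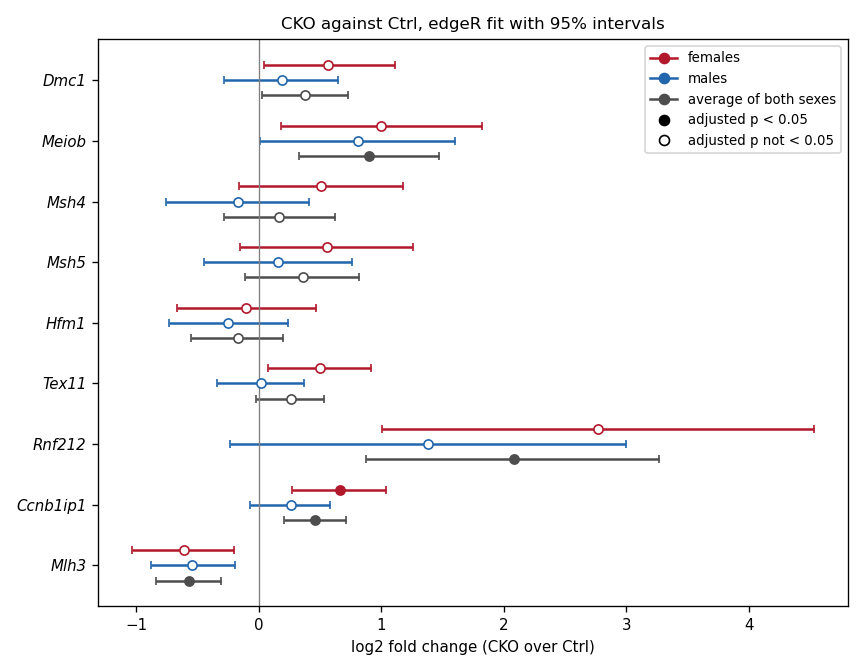
Log2 fold change of CKO over Ctrl on the x axis for each gene, in females, in males and averaged over the sexes, with 95% intervals from edgeR; a positive value means higher in CKO and filled points passed the threshold. Mlh3 is left of 0 in both sexes, and the intervals of Rnf212 are the widest.

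Taken by sex, 1 member passed in females: Ccnb1ip1 was higher, which is 1 of 9 members where 3.01% of all genes were called higher. None of the 9 was called lower, where 4.16% of all genes were. At an unadjusted p under 0.05, 6 of 9 members passed in females, beside 23.3% of all genes. In males no member passed in edgeR, where 1.7% of all genes were called in either direction; 2 members, Mlh3 and Meiob, had an unadjusted p under 0.05, beside 16.7% of all genes. DESeq2 and limma-voom each called 1 member in males, Mlh3, among 990 and 1122 genes called. The members' median log2 fold change was 0.56 in females and 0.16 in males, with medians over all genes of -0.004 and -0.018. The female median was 0.12 without the first female CKO embryo and 0.88 without the second. The difference between the female and the male effect was called for 0 of 9 members and for 0.0% of all genes in edgeR, for 0 members in DESeq2, and at an unadjusted p under 0.05 for 0 members and 1401 of all genes (8.39%). Over all genes DESeq2 called 61. A stronger effect in 1 sex is therefore not shown. The log2 fold change was larger in females for 8 of 9 members, with a median difference of 0.40 beside -0.009 over all genes, but for 4 of 9, with a median of -0.04, without the first female CKO embryo. Without the second it was larger for 9 of 9, with a median of 0.75.

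The 2 female groups did not overlap in CPM for 5 members. Meiob, Tex11, Rnf212 and Ccnb1ip1 were higher in both CKO embryos, 4 of 9 members where 22.2% of all genes behaved so. Mlh3 was lower in both, 1 of 9 where 22.3% did. In males, the groups separated for Mlh3 alone, 1 of 9 lower where 6.97% of all genes were, and 0 of 9 higher where 8.01% were. Mlh3 was thus lower without overlap in both sexes, a pattern shared by 3.93% of all genes.

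**Figure D2:**
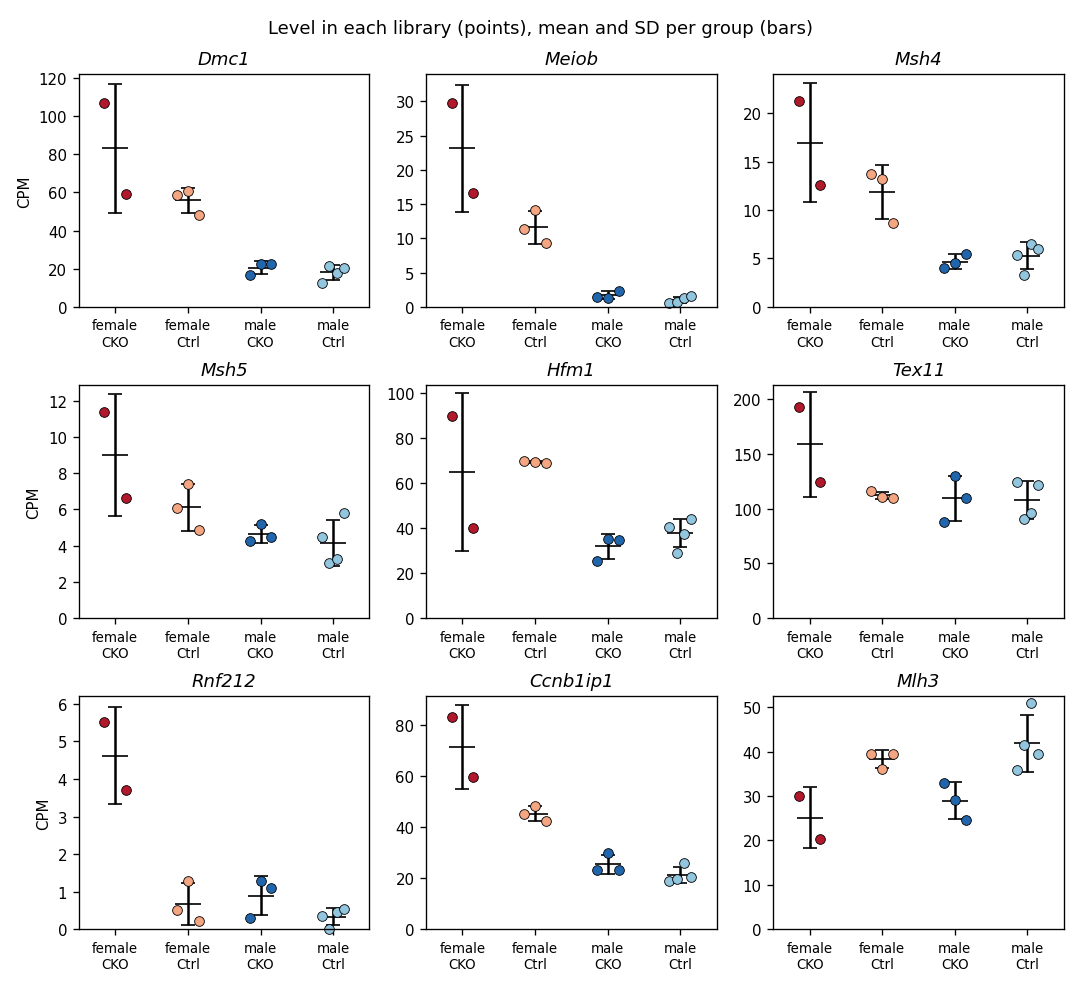
CPM of each of the 9 genes in every library, by group, each panel with its own axis from 0; points are embryos, and bars are the mean and SD of each group. Meiob and Dmc1 separate the sexes, and Rnf212 lies near 0 outside the female CKO embryos.

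Dmc1 encodes the meiosis-specific recombinase. It had 107.1 and 59.2 CPM in the female CKO embryos, against 58.8, 60.7 and 48.4 CPM in the female Ctrl embryos. In males it had 16.6, 22.4 and 22.4 CPM in CKO, against 12.6, 21.2, 17.8 and 20.5 CPM in Ctrl embryos. Only the first female CKO embryo stood above its controls, the second lay among them, and the male groups overlapped. The log2 fold change was 0.57 ± 0.25 in females (SE, adjusted p = 0.183, edgeR) and 0.19 ± 0.21 in males (adjusted p = 0.724), and 0.38 ± 0.16 averaged (adjusted p = 0.143). Without the second female CKO embryo the averaged value passed (adjusted p = 0.0446, edgeR). Between the sexes Dmc1 differed more: it was 4.06-fold higher in female than in male CKO embryos (adjusted p = 5.29e-05, edgeR) and 3.11-fold higher in female than in male Ctrl embryos (adjusted p = 5.71e-05, edgeR), with no overlap in either genotype.

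Meiob encodes a single-stranded DNA binding protein related to RPA1. It had 29.7 and 16.6 CPM in female CKO, against 11.4, 14.1 and 9.26 CPM in female Ctrl embryos. Male CKO embryos had 1.49, 1.32 and 2.37 CPM, against 0.53, 0.70, 1.22 and 1.51 CPM in male Ctrl embryos. Both female CKO values lay above every female Ctrl value, while the male groups overlapped at a level of 17 to 69 reads per library. Neither sex alone passed, with a log2 fold change of 1.00 ± 0.38 in females (SE, adjusted p = 0.132, edgeR) and 0.81 ± 0.37 in males (adjusted p = 0.291). The averaged value of 0.90 ± 0.26 passed (adjusted p = 0.037, edgeR), with adjusted p = 0.195 without the first female CKO embryo, 0.0714 and 0.0837 without female Ctrl embryo 1 and 3, and 0.103 without the third male CKO embryo, and 0.0701 in limma-voom. With only the female libraries fitted the female value passed in edgeR (adjusted p = 0.0394), as it did in limma-voom (0.034). Meiob had the largest sex difference of the 9 genes, 13.4-fold higher in female than in male CKO embryos (adjusted p = 2.45e-05, edgeR) and 11.7-fold higher in female than in male Ctrl embryos (adjusted p = 8.54e-06, edgeR).

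Msh4 and Msh5 encode the partners of the MutSγ clamp, which holds recombination intermediates together. Msh4 had 21.3 and 12.6 CPM in female CKO, against 13.7, 13.2 and 8.71 CPM in female Ctrl embryos, and 4.03 to 5.47 CPM (median 4.54) in male CKO, against 3.26 to 6.45 CPM (median 5.67) in male Ctrl embryos. Msh5 had 11.4 and 6.62 CPM in female CKO, against 6.08, 7.41 and 4.84 CPM in female Ctrl embryos, and 4.23 to 5.17 CPM in male CKO, against 3.01 to 5.79 CPM in male Ctrl embryos. The CKO and Ctrl values of both genes overlapped in each sex. For Msh4 the log2 fold change of CKO over Ctrl was 0.51 ± 0.31 in females (SE, adjusted p = 0.347, edgeR) and -0.17 ± 0.27 in males (adjusted p = 0.808). For Msh5 it was 0.56 ± 0.33 in females (adjusted p = 0.326, edgeR) and 0.16 ± 0.28 in males (adjusted p = 0.833). Msh4 was 3.62-fold higher in female than in male CKO embryos (adjusted p = 0.000534, edgeR) and 2.25-fold higher in female than in male Ctrl embryos (adjusted p = 0.00342). Msh5 was 1.95-fold higher in female than in male CKO embryos (adjusted p = 0.033, edgeR), and its 1.47-fold value among Ctrl embryos missed the threshold (adjusted p = 0.128) but passed in limma-voom (0.0264). The Msh5 call among CKO embryos was lost without the first female CKO embryo (adjusted p = 0.371) and without any of the male CKO embryos (0.0832, 0.0551 and 0.0696), and the Ctrl value passed without the fourth male Ctrl embryo (0.0482, edgeR).

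Hfm1 encodes a DNA helicase needed for crossing over. It had 89.6 and 40.1 CPM in female CKO, against 70.0, 69.5 and 68.9 CPM in female Ctrl embryos. The CKO embryos fell on either side of a narrow control range, and the log2 fold change was -0.10 ± 0.27 (SE, adjusted p = 0.864, edgeR). In males it had 25.3, 35.2 and 34.9 CPM in CKO, against 40.6, 29.1, 37.5 and 43.8 CPM in Ctrl embryos, which overlapped (log2 fold change -0.25 ± 0.22, adjusted p = 0.633, edgeR). Averaged over the sexes the value was -0.17 ± 0.17 (adjusted p = 0.552), and it was -0.52 and passed without the first female CKO embryo (adjusted p = 0.0419, edgeR). Hfm1 was 2.04-fold higher in female than in male CKO embryos (adjusted p = 0.00749, edgeR) and 1.84-fold higher in female than in male Ctrl embryos (adjusted p = 0.00632). Among CKO embryos that call was lost without the first female one, where the log2 difference was 0.33 (adjusted p = 0.309).

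Tex11, on chromosome X, encodes a protein that promotes crossing over and is known for male infertility when lost. It had 193.0 and 124.6 CPM in female CKO, against 116.2, 110.6 and 110.2 CPM in female Ctrl embryos. Males had 88.2, 130.0 and 109.8 CPM in CKO, against 124.5, 90.6, 95.6 and 121.4 CPM in Ctrl embryos. Both female CKO values were above all female Ctrl values, but the log2 fold change of 0.50 ± 0.20 missed the threshold (SE, adjusted p = 0.142, edgeR), and it was 0.02 ± 0.17 in males (adjusted p = 0.974). Among Ctrl embryos the sexes lay close together, 112.4 ± 3.37 CPM in females and 108.1 ± 17.4 CPM in males, with a log2 difference of 0.06 and a 95% interval from -0.30 to 0.41. Among CKO embryos Tex11 was 1.45-fold higher in females than in males (adjusted p = 0.0436, edgeR) although the groups overlapped. That call was lost without the first female CKO embryo (log2 difference 0.18, adjusted p = 0.563), male CKO embryo 1 or 3 (0.125 and 0.0679), or the first or second female Ctrl embryo (0.0516 and 0.0553), in limma-voom (0.0584) and with no filter on low counts (0.056).

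Rnf212 encodes a SUMO ligase of the RING family that marks future crossover sites and whose dose affects their number. It had 5.53 and 3.70 CPM in female CKO, from 189 and 123 reads, against 0.522, 1.28 and 0.206 CPM in female Ctrl embryos, from 17, 41 and 6 reads. Male CKO embryos had 0.305, 1.28 and 1.10 CPM, against 0.350, 0, 0.463 and 0.530 CPM in male Ctrl embryos. The female CKO embryos stood above all the other libraries, and 1 male Ctrl library had no read, which allows up to 0.124 CPM at 3 counts. In females the log2 fold change of 2.77 ± 0.82 missed the threshold (SE, adjusted p = 0.0578, edgeR), and in males it was 1.38 ± 0.75 (adjusted p = 0.379). The averaged value of 2.08 ± 0.55 passed (adjusted p = 0.0247, edgeR). It missed without female CKO embryo 1 (adjusted p = 0.0887) or 2 (0.0519), female Ctrl embryo 1 (0.0582) or 3 (0.0551), and male CKO embryo 2 (0.0658) or 3 (0.0588). The female value passed with only the female libraries fitted (adjusted p = 0.0186, edgeR), in DESeq2 (0.0174) and in limma-voom (0.0175), and in edgeR without the first (0.0486) or second (0.0163) male Ctrl embryo. Rnf212 was 5.14-fold higher in female than in male CKO embryos (adjusted p = 0.0338, edgeR), while the log2 difference of 0.97 between female and male Ctrl embryos missed the threshold (adjusted p = 0.335). The call among CKO embryos was lost without any 1 of the CKO embryos (adjusted p 0.055 to 0.168) and with no filter on low counts (0.0537).

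Ccnb1ip1 encodes HEI10, a RING ligase of the same pathway that is needed for crossover maturation. It had 82.9 and 59.7 CPM in female CKO, against 45.1, 48.3 and 42.4 CPM in female Ctrl embryos. Male CKO embryos had 23.2, 29.8 and 23.3 CPM, against 19.0, 19.7, 26 and 20.4 CPM in male Ctrl embryos. Every female CKO value lay above every female Ctrl value, whereas 1 male Ctrl embryo exceeded 2 of the male CKO embryos. The log2 fold change was 0.66 ± 0.18 in females (SE, adjusted p = 0.0413, edgeR), 0.26 ± 0.15 in males (adjusted p = 0.424) and 0.46 ± 0.12 averaged (adjusted p = 0.0203). In females the call did not hold without the first female CKO embryo (0.344), female Ctrl embryo 1, 2 or 3 (0.0929, 0.0749 and 0.117) or the fourth male Ctrl embryo (0.0515), and the averaged call without the first female CKO (0.123) or second male CKO embryo (0.0565). Ccnb1ip1 was 2.80-fold higher in female than in male CKO embryos (adjusted p = 4.29e-05, edgeR) and 2.13-fold higher in female than in male Ctrl embryos (adjusted p = 9.29e-05). Its exons overlap the ribozyme gene Rpph1 on the same strand over 12.4% of their length, and Rpph1 was assigned 362 reads over all libraries, against 13735 for Ccnb1ip1.

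Mlh3 encodes an endonuclease subunit that resolves crossover intermediates. It had 30.0 and 20.3 CPM in female CKO, against 39.6, 36.1 and 39.6 CPM in female Ctrl embryos. Male CKO embryos had 33.0, 29.1 and 24.7 CPM, against 35.8, 41.5, 50.9 and 39.6 CPM in male Ctrl embryos. All 5 CKO embryos lay below every Ctrl embryo of either sex. The log2 fold change was -0.61 ± 0.19 in females (SE, adjusted p = 0.0715, edgeR), -0.54 ± 0.16 in males (adjusted p = 0.105) and -0.57 ± 0.13 averaged (adjusted p = 0.00959). DESeq2 called the fall in females (0.031) and in males (0.0323), limma-voom called it in males (0.0172), and of the 12 libraries left out in turn, the averaged edgeR call was lost only without the second female CKO embryo (0.0559). The sexes could not be separated by Mlh3: the log2 difference between females and males was -0.20 (adjusted p = 0.431, edgeR) among CKO and -0.13 (adjusted p = 0.561) among Ctrl embryos, with overlapping values in both.

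**Figure D3:**
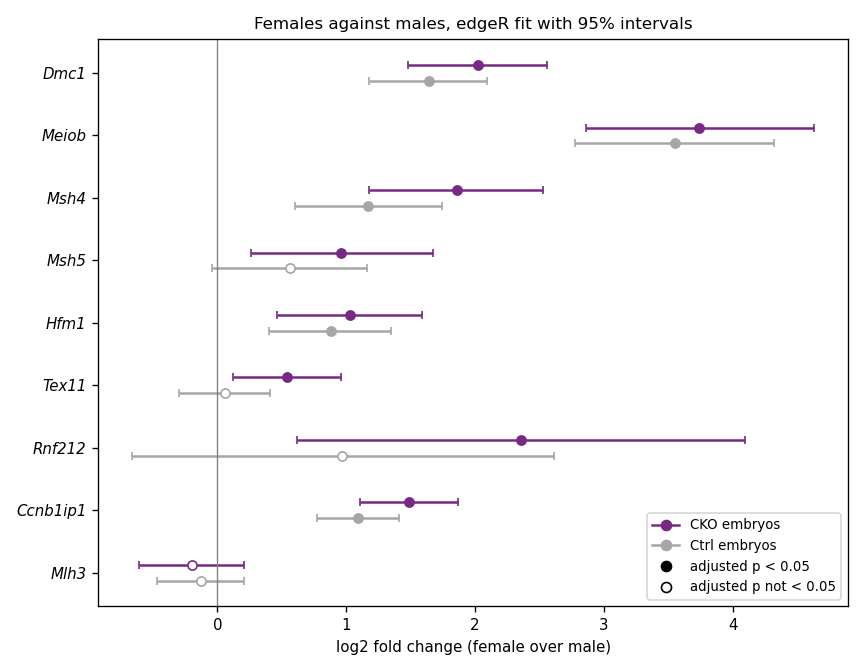
Log2 fold change of females over males on the x axis for each gene, among CKO and among Ctrl embryos, with 95% intervals from edgeR and filled points past the threshold. Meiob lies farthest right, at 3.74 among CKO and 3.55 among Ctrl embryos, and the intervals of Mlh3 span 0 in both genotypes.

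Dmc1, Meiob, Msh4 and Ccnb1ip1 were higher in females than in males in both genotypes, in the edgeR fit and under every alternative run. Among CKO embryos 8 of 9 were higher in females and 0 of 9 lower, where 19.4% and 19.0% of all genes were, with a median log2 difference of 1.49 beside 0.029 over all genes. The count among CKO embryos was 4 of 9 without the first female CKO embryo and 5 of 9 without male CKO embryo 1 or 3. Without male CKO embryo 1 or 3, 5240 and 5602 of all genes were called in either direction, beside 6411 with all libraries. Among Ctrl embryos 5 of 9 were higher and 0 of 9 lower, where 20.1% and 19.4% of all genes were, with a median of 0.97 beside 0.002. The values of the sexes did not overlap for 7 of 9 members among CKO embryos, where 33.4% of all genes were higher in that way, and for 5 of 9 among Ctrl embryos, where 22.3% were. The 3 genes called among CKO but not among Ctrl embryos were Msh5, Rnf212 and Tex11, and for none of them did the test of the difference between genotypes pass (adjusted p = 0.821, 0.758 and 0.631, edgeR). Sertoli markers summed to 2.35 CPM or less in females and 5.51 CPM or more in males. Pregranulosa markers summed to 10.5 CPM or more in females and 3.88 CPM or less in males. Not every marker followed its sum. Fst, of the pregranulosa list, was lower in female than in male CKO embryos (0.732 and 1.02 CPM, against 1.32 to 2.22) and overlapped among Ctrl embryos. Runx1 and Cldn11 overlapped in both genotypes, and Foxl2 and Gata4 among Ctrl embryos. The part of these markers in the sex differences was not tested.

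The 2 female CKO embryos differed from each other in all 9 genes. The first was higher in each, by 1.39-fold for Ccnb1ip1 to 2.23-fold for Hfm1, with a median log2 ratio of 0.738, whereas 50.9% of all genes were higher in it and their median log2 ratio was 0.00778. That is the direction of the CKO against Ctrl difference in females for 7 of the genes, and the opposite direction for Hfm1 and Mlh3. No other pair of libraries within a group had as large a median over the members; the nearest were male Ctrl embryos 2 and 4 at -0.583. Among female Ctrl embryos the first exceeded the third in 9 of 9 genes, with a median log2 ratio of 0.278. Of all genes 50.6% were higher in the first, with a median log2 ratio of 0.00519. The first female CKO library also had 6.50 CPM of red blood cell markers, against 0.542 CPM in the second, and the first male CKO library reached 16.2 CPM. Ezh2 transcripts were at 84.5 CPM in the first female CKO library and 106.7 CPM in the second. The part of these markers and of Ezh2 in the difference between the embryos was not tested.

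**Figure D4:**
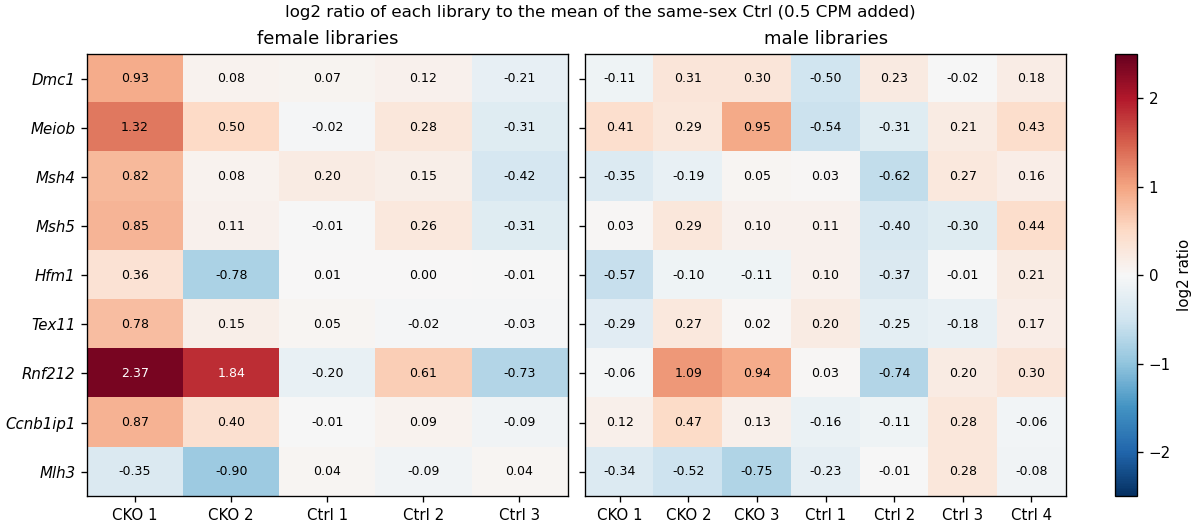
Log2 ratio of each library to the mean of the Ctrl embryos of its sex (0.5 CPM added), genes in rows and libraries in columns, red for above and blue for below that mean. The first female CKO column is red in 8 rows and blue for Mlh3, and the Mlh3 row is blue in all 5 CKO columns.

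Set on a per-length scale, the 9 genes kept a stable top. Tex11, Ccnb1ip1 and Dmc1 ranked 1, 2 and 3 in all 4 groups, by exon union and by longest transcript. In CPM per kb of exon union, Tex11 had 43.8 ± 13.3 in female CKO and 31.0 ± 0.930 in female Ctrl, and 30.2 ± 5.76 in male CKO and 29.8 ± 4.80 in male Ctrl embryos (SD). Ccnb1ip1 had 37.8 ± 8.71 in female CKO and 24.0 ± 1.55 in female Ctrl, and 14 ± 2.0 in male CKO and 11.3 ± 1.69 in male Ctrl embryos. For Dmc1 the levels were 34.2 ± 13.9 in female CKO and 23.0 ± 2.72 in female Ctrl, and 8.41 ± 1.36 in male CKO and 7.41 ± 1.59 in male Ctrl embryos. The means of these 3 lay within 1 SD of each other in female CKO embryos, and those of Ccnb1ip1 and Dmc1 did so in female Ctrl embryos. The genes were measured in the same embryos, so these SDs do not show whether the order holds within each embryo. Meiob ranked 4 in female CKO embryos at 12.9 ± 5.13 CPM per kb and 8 in male Ctrl embryos at 0.550 ± 0.254 CPM per kb. Rnf212 was lowest in every group except female CKO, where Msh5 was, at 1.63 ± 0.610 CPM per kb. The ranks from 4 down changed in part with the length used.

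**Figure D5:**
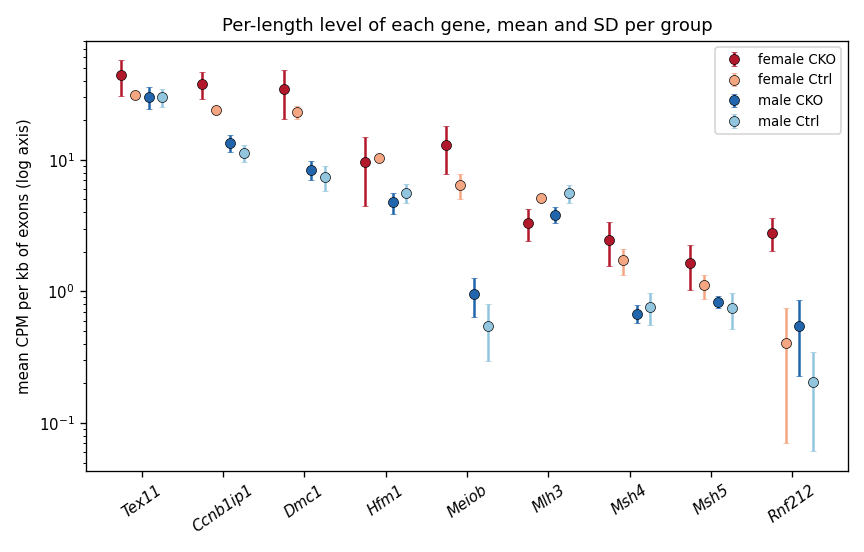
Mean CPM per kb of exon union for each gene in the 4 groups on a log axis, with bars of 1 SD. Tex11 is at about the same level in female Ctrl and both male groups, while Meiob spans more than 10-fold between the sexes.

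Among other genes of the pathway, Fancm, Blm and Brca1 were lower in female CKO embryos. Of a list of 39 matched recombination genes, 0 were called higher and 3 lower in female CKO embryos, where 3.01% and 4.16% of all genes were, with a median log2 fold change of -0.19 beside -0.004 over all genes. Fancm, a helicase that restrains crossing over, averaged 27.0 ± 2.60 CPM in female CKO and 57.6 ± 0.731 CPM in female Ctrl embryos (adjusted p = 0.00768, edgeR). Blm, the helicase that dissolves joint molecules, averaged 62.6 ± 4.26 CPM in female CKO and 107.6 ± 8.11 CPM in female Ctrl embryos (adjusted p = 0.0167, edgeR). Brca1, a repair scaffold, averaged 97.4 ± 11.0 CPM in female CKO and 158.2 ± 18.9 CPM in female Ctrl embryos (adjusted p = 0.0344, edgeR). In males 0 of 39 were called in edgeR, where 1.7% of all genes were, with 10 at an unadjusted p under 0.05, where 16.7% of all genes were.

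Averaged over the sexes, CKO embryos had more of 2 of the 39 and less of 5, where 6.85% and 7.87% of all genes were called, and the list's median was -0.12 beside -0.012. The higher ones were Zswim7, a cofactor of strand exchange (log2 fold change 0.35, adjusted p = 0.0237, edgeR), and Rad51ap2. Rad51ap2 averaged 14.9 ± 6.89 CPM in female CKO and 2.32 ± 1.68 CPM in female Ctrl, and 0.933 ± 0.784 CPM in male CKO and 0.241 ± 0.207 CPM in male Ctrl embryos (averaged log2 fold change 2.30, adjusted p = 0.0234, edgeR). The lower ones were Blm (-0.64), Fancm (-0.74), Brca1 (-0.54), Mcm9 (-0.36) and Eme1 (-0.29). None of the 39 was called for the difference of the effect between the sexes in edgeR, with 3 at an unadjusted p under 0.05, where 8.39% of all genes were.

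Between females and males, 7 of the 39 were higher and 9 lower in females among CKO embryos, where 19.4% and 19.0% of all genes were. Among Ctrl embryos 6 were higher and 8 lower, where 20.1% and 19.4% of all genes were. Among CKO embryos, those with the smallest adjusted p were Prr19, a crossover factor, 1.12 higher on the log2 scale (adjusted p = 0.000194, edgeR), and Rtel1 and Rpa1, with log2 differences of -1.18 and -0.81. Among Ctrl embryos they were Rtel1 (-0.95), the nuclease gene Mus81 (-1.05) and Fignl1 (0.52). Rad51ap2 had the widest difference of the list in both genotypes, with log2 differences of 4.0 among CKO and 3.24 among Ctrl embryos. The crossover genes Shoc1 and Cntd1 were higher in female than in male CKO embryos, by 2.13 and 1.41 on the log2 scale.

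For each member, the tested gene with the most similar profile over the 4 group means was found among 10479 genes, as the root mean square difference of centred log2(CPM + 0.5). Tex11 was nearest to Galnt12 (0.00758), Mlh3 to C2cd3 (0.0163), Msh5 to Casc4 (0.018), Msh4 to Aig1 (0.0197) and Hfm1 to Ss18l1 (0.0225). For Ccnb1ip1 the nearest was Epm2a (0.0373), for Dmc1 Kcnd1 (0.0442), for Rnf212 Slc7a8 (0.0598) and for Meiob Ankrd29 (0.0923). The genes searched had an ordinary symbol and a mean of at least 5 CPM in their highest group. That left out Rnf212, with a highest mean of 4.62 CPM, as a possible nearest gene. No other member was the nearest gene of a member, and the likeness rests on 4 means only.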

How the data were processed

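Primordial germ cell RNA of 12 embryos was sequenced, 1 library per embryo. Per the labels' protocols, cDNA was amplified with SMART-seq V4, a kit that does not mark strand. The authors deposited raw read counts per gene, and those counts were used unchanged. Tools listed by the submitters' processing notes are TopHat2 2.0.11, featureCounts, Trimmomatic 0.33 and CASAVA 1.8.4, with the builds NCBIM37 and mm9. The handling of multiply mapped reads is not given in the sources used here. Of 37991 identifiers, 32919 matched a symbol in GENCODE M21 (99.5% of counts), the source of exon lengths and exon overlaps on GRCm38. No library pair within a group agreed within sampling noise (chi-square per gene 18.6 to 74.2).

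From the counts, edgeR 4.0.16 (limma 3.58.1, R 4.3.3) kept genes with filterByExpr (minimum count 10, total 15), scaled by TMM (0.926 to 1.11) and fitted a robust quasi-likelihood model with 1 coefficient per group over all 12 libraries (8 residual degrees of freedom). The effect of CKO over Ctrl was tested per sex, as the average and as the difference of the sexes, and females were tested over males within each genotype. P-values were adjusted by Benjamini-Hochberg over 16708 genes and called under 0.05. SE derive from the F statistic and intervals are 95%. P-values measure the spread between embryos. The fit was tested on simulated data. Alternatives were median-of-ratios scaling, 2 other filters, a fit of just the groups in a contrast, a replicate block, DESeq2 1.42.0, limma-voom with quality weights, and each library left out. The floor for no reads is 3 counts and covers counting error only.

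The members and lists were chosen with earlier results of these data known, so no test over a list was made. Of the 40 listed recombination genes 39 matched. Named genes are all members, Ezh2, the called listed genes with the smallest adjusted p per contrast, and each member's nearest profile. Shoc1, Cntd1 and marker genes with values were chosen after their values were seen. Some listed genes are not reported here.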

Additional observations from a re-analysis of the deposited data

How the results depend on the processing

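Of 1002 values for single genes under the alternatives, 928 kept direction and side of the threshold, 42 lost and 14 gained a call, and 18 reversed sign, none of them a called value. The calls for females went to 3 of 9 genes with only the female groups, in DESeq2 and in limma-voom, to 0 with the replicate block, and to between 0 and 2 without 1 library, beside 1. For males 1 of 9 was called in DESeq2 and in limma-voom, beside 0. Averaged over the sexes, 2 to 4 were called without 1 library, beside 4. Under the filter of at least 5 CPM in 2 libraries Rnf212 was not tested, and 3 of the 8 members left were called in that average. Among CKO embryos, 5 were called between the sexes with the replicate block and 4 to 8 without 1 library, beside 8. Over all genes, 1198 were called in females, against 1989 in DESeq2, 2068 in limma-voom and 317 to 1730 without 1 library. In males 284 were called, against 63 with only the male groups, 105 with the block, 990 in DESeq2, 1122 in limma-voom and 36 to 502 without 1 library. The averaged count of 2460 ran from 1363 to 2803, the count among CKO embryos of 6411 from 4063 to 6957, and the count of 0 for the difference from 0 to 3 without 1 library, with 2 when no filter was used and 61 in DESeq2. The cause of these changes was not tested.

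Reversals without 1 library are given as ranges of log2 values. Hfm1 ran from -0.79 to 0.38 in females and from -0.52 to 0.07 averaged, Msh4 from -0.04 to 0.34 averaged, and Tex11 from -0.13 to 0.16 in males. For the difference of the effect, Dmc1 ran from -0.10 to 0.76, Msh5 from -0.04 to 0.75, Hfm1 from -0.54 to 0.63, Meiob from -0.28 to 0.56 and Mlh3 from -0.38 to 0.19, with Meiob at -0.01 under the replicate block and Mlh3 at 0.05 in limma-voom. Between the sexes, Tex11 ran from -0.02 to 0.12 among Ctrl and Mlh3 from -0.51 to 0.06 among CKO embryos.

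The labels do not say whether same-numbered libraries are pairs. Library numbers here, and those of the replicate block, follow the sample titles. The count columns carry the same numbers in males but not in females. There, female CKO 1 and female Ctrl 1 differ in number, while female CKO 2 and female Ctrl 2 share one. A grouping by the column numbers was not tested. By title number, deviations from the group means correlated at 0.244 (female CKO 1 with female Ctrl 1) and 0.0346 in females. In males the values were 0.0751, 0.101 and -0.0408. With groups of 2 to 4 embryos, these values cannot decide whether the libraries were paired. What a call lost with the block means is therefore not settled. With the block, the adjusted p of Ccnb1ip1 was 0.0746 in females and 0.0507 averaged. Scaling and filters moved the median of all genes by less than 0.1 on the log2 scale. Groups of 2 to 4 embryos, and 6 to 41 reads for Rnf212 in female Ctrl libraries, limit what can be seen.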
